A study of Homo sapiens with 12 samples.

Results

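The transcripts of 8 ETS transcription factors that act downstream of the ERK kinases were followed in T24 cells, an established human bladder carcinoma line known for an activating HRAS mutation. ETV1, ETV4 and ETV5 form the PEA3 subfamily, ETS1 and ETS2 the ETS subfamily, and ELK1, ELK3 and ELK4 the ternary complex factors (TCF). The 8 genes were chosen by symbol among the 60603 genes of the deposited table, and all 8 were among the 17775 genes with enough counts to be tested. The series concerns AlissAID, a method in which a binder recruits an untagged protein of the cell to a ubiquitin ligase that works in the presence of auxin, so that the protein is degraded. The 12 poly(A) RNA-seq libraries, 3 a group, came from WT cells without treatment, WT cells given 5-Ad-IAA, NS1 cells without treatment and NS1 cells given 5-Ad-IAA, all in the T24 background. 5-Ad-IAA is an auxin derivative and is called the inducer here. The labels do not spell out what NS1 stands for, which protein it targets, its promoter, or whether the line is 1 clone, and they give no dose or duration. A synthetic binder of HRAS bears the same name, but the labels do not tie it to this line. A transcript level would not check the loss of a protein in any case.

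ETS factors share a DNA-binding domain that reads a GGAA core, and growth factor, RAS and ERK signalling reaches them by several routes. ERK phosphorylates the TCF proteins, which sit with serum response factor (SRF) on CArG boxes of immediate early genes, and it phosphorylates ETS1 and ETS2, which raises their activity. The PEA3 genes are in addition controlled at the level of transcription: the repressor Capicua (CIC) binds octamers such as TGAATGAA and TGAATGGA near them, and ERK signalling removes CIC. The COP1 and DET1 ubiquitin ligase removes PEA3 proteins, a step that transcript levels do not show.

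The 8 genes lie on 8 chromosomes. On GRCh38.p14, with RefSeq gene bounds, ETV1 (ENSG00000006468.14) spans chr7:13891229-13991425, ETV4 (ENSG00000175832.13) chr17:43527846-43546340 and ETV5 (ENSG00000244405.8) chr3:186046314-186109089. ETS1 (ENSG00000134954.14) spans chr11:128458765-128587558 and ETS2 (ENSG00000157557.13) chr21:38805183-38824955. ELK1 (ENSG00000126767.18) spans chrX:47635520-47650604, ELK3 (ENSG00000111145.8) chr12:96194375-96269824 and ELK4 (ENSG00000158711.13) chr1:205607943-205632011. RefSeq promoter windows of 300 bases, 250 before and 50 after a start site, were at hand for 5 of the 8 genes: 6 for ETV1, 2 each for ETS2 and ELK3, and 1 each for ELK1 and ELK4. ETV4, ETV5 and ETS1 had no window in the table used. Both strands were searched for GGAA, for the ETS site CCGGAAGT that holds this core, for TGAATGAA and TGAATGGA, for the AP-1 site TGANTCA, for the cyclic AMP response element TGACGTCA and for the CArG box. Every window of the 5 genes held GGAA, as did 95.5% of all 35116 windows of the same length. Beyond that core there were 2 matches, and the 250 bases before the start site of those windows are printed with the match in capitals. In ETV1 the match is TGAATGGA, which ends 118 bases before the start site and which 1.03% of all windows hold. In ELK4 it is CCGGAAGT, which ends 15 bases before the start site and which 4.14% of all windows hold. The sequences run 5′ to 3′ on the minus strand, at chr7:13991426-13991675 for ETV1 and at chr1:205632012-205632261 for ELK4. A match is a run of letters and not a measured binding site.
ETV1: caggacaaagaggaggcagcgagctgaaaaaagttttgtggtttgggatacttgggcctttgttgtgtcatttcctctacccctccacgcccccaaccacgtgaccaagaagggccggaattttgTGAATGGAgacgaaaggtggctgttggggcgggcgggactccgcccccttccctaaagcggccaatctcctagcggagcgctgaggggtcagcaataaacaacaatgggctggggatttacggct
ELK4: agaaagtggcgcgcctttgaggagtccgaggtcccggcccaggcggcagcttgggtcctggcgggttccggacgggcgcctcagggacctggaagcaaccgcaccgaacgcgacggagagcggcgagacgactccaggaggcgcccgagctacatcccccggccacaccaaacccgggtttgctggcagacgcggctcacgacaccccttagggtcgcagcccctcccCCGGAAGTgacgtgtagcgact
TGAATGAA, TGANTCA, TGACGTCA and the CArG box, which 1.65%, 7.71%, 1.85% and 1.29% of all windows hold, were in none of these 12 windows.

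Library totals ran from 10593934 to 20266996 counts, with the replicate 1 libraries deepest in sum (15627546 to 20266996). The labels do not say whether replicates were separate cultures, so the p-values measure the spread between these libraries, which may be technical. Libraries numbered 1 stood apart within their groups. ETV5 and ETS1 were lowest in replicate 1 in 4 of 4 groups, ETV4 and ELK3 in 3 of 4, and ETS2 was highest in replicate 1 in 4 of 4. The labels give no batch. Values without replicate 1 are given where they change a call of a factor or move it most. In bulk RNA, fewer cells with a transcript and less of it per cell cannot be told apart.

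Per kilobase of exon, the set covered a wide range of levels. ETS1 was the highest of the 28 human ETS genes by its mean over the 12 libraries, at 21.1 CPM per kb, where CPM is the read count scaled by the TMM-adjusted library total. ELK3 at 19.2 and ELK1 at 18.5 CPM per kb came next. ETV5 stood at place 6 with 13.3, ETS2 at place 8 with 9.65 and ETV4 at place 10 with 5.69 CPM per kb. ETV1 at 1.78 and ELK4 at 1.63 CPM per kb stood at places 15 and 16. The ranges over libraries of ETS1 (12.1 to 29.2), ELK3 (11.99 to 28.3) and ELK1 (16.5 to 19.8 CPM per kb) overlapped, as did those of ETV1 (0.596 to 2.77) and ELK4 (1.03 to 2.26 CPM per kb), so the order within these neighbours was not resolved. ETV5 (8.75 to 17.3) and ETV4 (1.46 to 10.3 CPM per kb) also overlapped over all libraries. Within each group ETV5 took most of the summed PEA3 level: 56.2% to 60.8% in untreated WT, 54.9% to 57.0% in treated WT, 69.9% to 75.0% in untreated NS1 and 76.1% to 81.8% in treated NS1. FEV, ELF5, SPIB and SPIC had no count in any library.

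**Figure D1:**
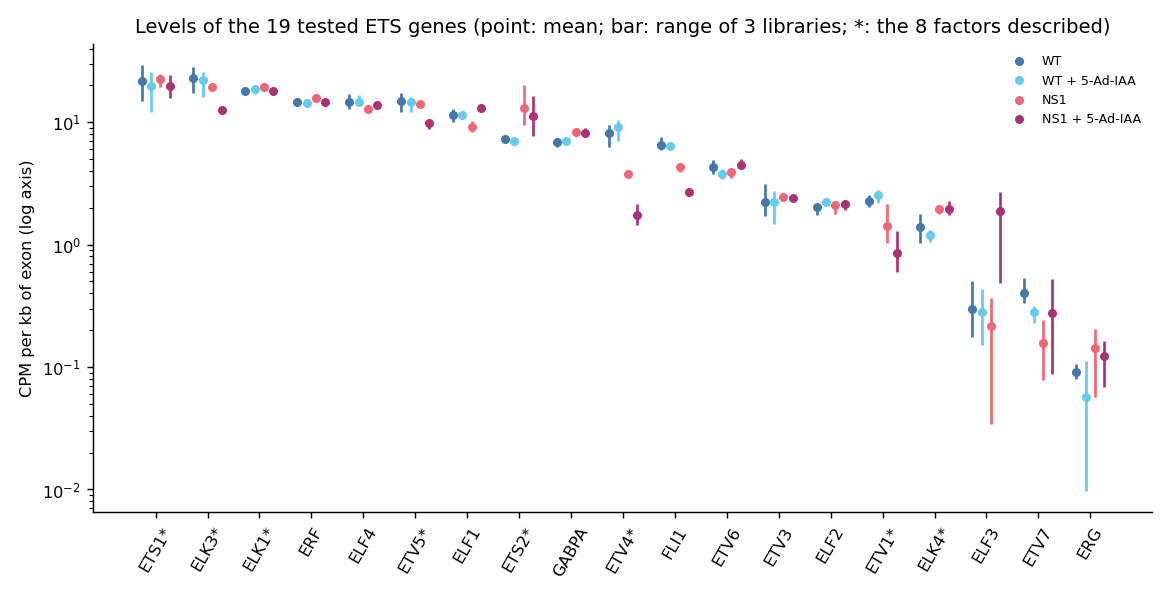
Levels of the 19 tested ETS genes in CPM per kb of exon, on a log axis, as the mean (point) and the range of 3 libraries (bar) in each of the 4 groups. Asterisks mark the 8 factors described. ETS1, ELK3 and ELK1 stand highest by their mean over the 12 libraries, but in treated NS1 ELK3, at 12.7, lies below ERF (14.6), ELF4 (13.9) and ELF1 (13.1); ETV4, ETV5, ELK3 and FLI1 have their lowest mean in NS1 with 5-Ad-IAA.

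In NS1 cells the inducer was followed by lower ETV4 and ETV5. By edgeR's quasi-likelihood test over all 17775 genes, ETV4 fell by 54.5% and ETV5 by 30.4%, and these were the 2 of 8 factors called at an adjusted p under 0.05, against 6.15% of all genes (3.39% in the lower direction). All 8 estimates were below 0 and their median was -0.38 on the log2 scale, where the median of all genes was 0.01. The 3 PEA3 genes had a median log2 change of -0.74, against -0.03 for the 16 other ETS genes tested, a difference of -0.71 that carries no test. Groups did not overlap for ETV4, ETV5 and ELK3, each lower with the inducer; 14.0% of all genes were lower without overlap.

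ETV4, a PEA3 factor linked to invasion in several carcinomas, had the largest fall of the 8. Its normalised CPM in replicates 1, 2 and 3 was 13.3, 13.2 and 14.6 in untreated NS1 and 5.25, 7.68 and 5.90 with the inducer. Every treated library lay below every untreated one, and the 3 untreated values were close together. The mean went from 13.7 ± 0.79 to 6.28 ± 1.26 CPM (SD, n = 3), a log2 change of -1.14 ± 0.20 (SE, edgeR adjusted p = 0.0074). ETV4 was called in all 6 fits that left out a single NS1 library, with an edgeR adjusted p of 0.017 to 0.041.

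ETV5, the most abundant PEA3 transcript, had 78.3, 83.4 and 82.9 CPM in untreated NS1 and 50.8, 61.5 and 58.1 CPM with the inducer. The groups were again apart, and within each the library numbered 1 was the lowest. The means were 81.5 ± 2.82 and 56.8 ± 5.49 CPM (SD, n = 3), with a log2 change of -0.52 ± 0.14 (SE, edgeR adjusted p = 0.046). This call lay close to the threshold and was lost in each of the 6 fits without a single NS1 library (edgeR adjusted p 0.082 to 0.13).

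ETV1 had the widest spread of the PEA3 genes. Its values were 20.6, 10.8 and 10.0 CPM in untreated NS1 and 12.4, 6.28 and 5.73 CPM with the inducer, so that replicate 1 lay well above the others in both groups and the groups overlapped. The log2 change of -0.74 ± 0.30 (SE) did not pass the test (edgeR adjusted p = 0.18). Same-numbered libraries of a line deviated together over all genes, although those numbered 2 and 3 also did so across numbers. Within same-numbered libraries ETV1 differed by -0.70, -0.73 and -0.75 on the log2(CPM + 0.5) scale. The 3 differences were nearly equal although the levels were not. With a block for each replicate number within each line, ETV1 was called at -0.76 ± 0.10 (SE, edgeR adjusted p = 9.4e-05), and without replicate 1 at -0.79 (edgeR adjusted p = 0.0057).

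The block within each line called 5 of the 8 factors in NS1, all lower: ETV1, ETV4 (edgeR adjusted p = 1.1e-05), ETV5 (0.00013), ELK3 (8.7e-05) and ETS2 (0.041). In that fit 25.9% of all genes were called, and 12.8% were called lower. A block for the number alone called 3, namely ETV4, ETV5 and ELK3, against 13.6% of all genes. Without replicate 1 there were 4 calls, ETV1, ETV4, ETV5 and ELK3, against 11.4% of all genes, while without replicate 2 or without replicate 3 edgeR called 0 of the 8 and 0 of all genes; 2047 and 2048 genes then had an unadjusted p below 0.05. Leaving out a single NS1 library gave 1 call, ETV4, in 5 cases, against 2.22% to 3.22% of all genes. Without treated replicate 1 it gave 2 calls, ETV1 and ETV4, against 6.54% of all genes.

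**Figure D2:**
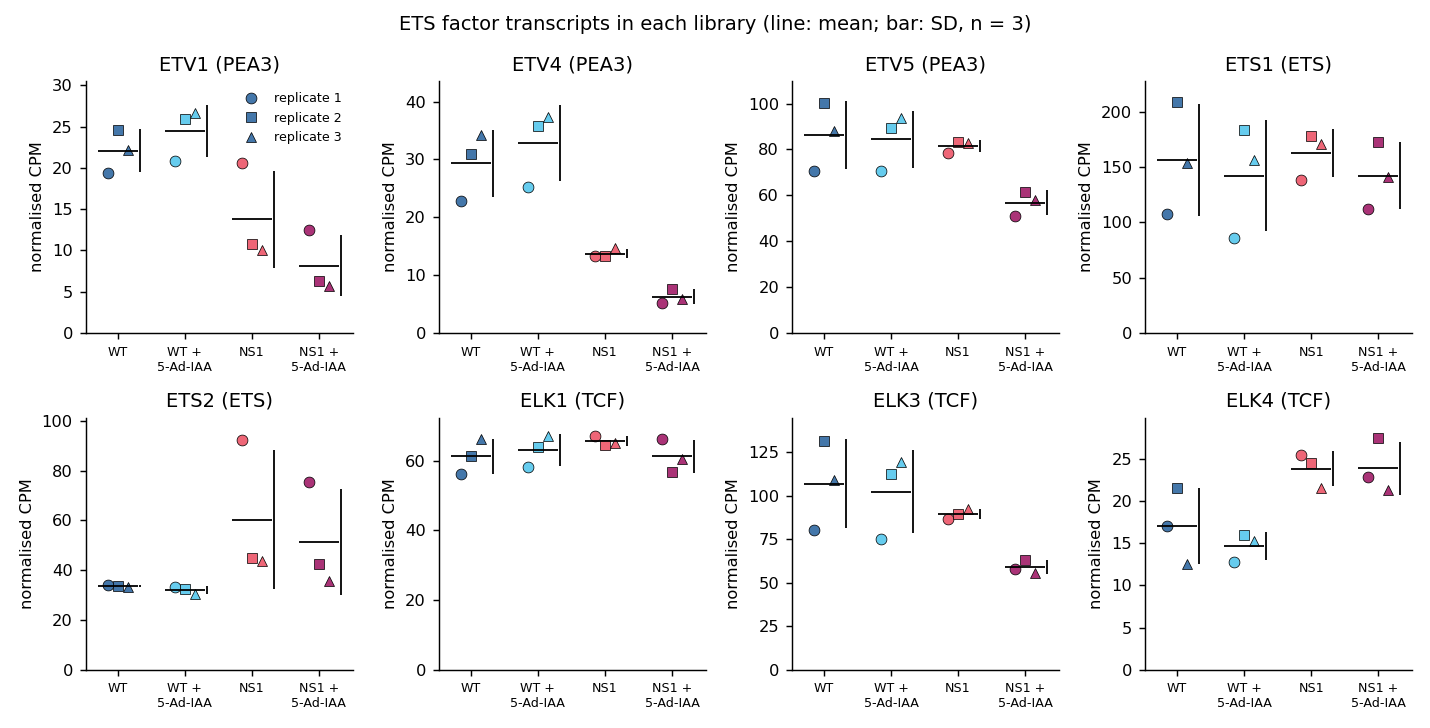
Normalised CPM of the 8 factors in each of the 12 libraries, with a symbol for each replicate number, a line at the group mean and a bar of 1 SD (n = 3). ETV4 steps down from WT to untreated NS1 and again with 5-Ad-IAA, ETV5 and ELK3 are lowest in treated NS1, and replicate 1 of ETV1 and ETS2 stands high in both NS1 groups.

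The factors outside the PEA3 subfamily were mostly near their untreated level in NS1. ELK3, a TCF that can also repress, was the exception in size. It had 86.5, 89.3 and 92.2 CPM untreated and 58.1, 63.3 and 55.7 CPM with the inducer. All 3 treated values lay below all untreated ones, with means of 89.3 ± 2.88 and 59.0 ± 3.87 CPM (SD, n = 3). The log2 change of -0.60 ± 0.18 (SE) missed the threshold (edgeR adjusted p = 0.072). It passed in 6 of 8 other scalings, filters and fits of all libraries, both block fits and DESeq2 among them. The share of ELK3 in the summed TCF level per kb was 46.0% to 48.7% in untreated NS1 and 36.9% to 41.8% with the inducer.

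ELK1, the TCF best known as an ERK substrate, had 67.2, 64.4 and 65.1 CPM untreated and 66.3, 56.8 and 60.5 CPM with the inducer. Its groups overlapped and its log2 change was -0.10 ± 0.10 (SE, edgeR adjusted p = 0.65). ELK4, the third TCF, had 25.4, 24.5 and 21.5 CPM against 22.9, 27.4 and 21.3 CPM with the inducer, a log2 change of -0.00059 ± 0.17 (SE, edgeR adjusted p = 0.999). These errors were smaller than those of ETS1 and ETS2. ETS1 had 138, 178 and 171 CPM untreated and 112, 173 and 141 CPM with the inducer (log2 change -0.20 ± 0.27 SE, edgeR adjusted p = 0.75). ETS2 had 92.4, 44.7 and 43.9 CPM against 75.5, 42.6 and 35.6 CPM (log2 change -0.23 ± 0.28 SE, edgeR adjusted p = 0.72), and in both groups replicate 1 was far above the other libraries. ETS1, ETS2 and ELK1 were lower in 3 of 3 same-numbered pairs, by at most 0.30 on the log2(CPM + 0.5) scale.

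In WT cells the inducer had no detected effect on any of the 8 factors. None was called by edgeR, where 0.0% of all genes were called, none had an unadjusted p under 0.05 (94 of all genes did), and DESeq2 called 0. The count of 94 depends on the fit. With the block within each line, 476 of all genes had an unadjusted p under 0.05 in WT, none of the 8 among them. ETV1 had 19.4, 24.6 and 22.1 CPM untreated and 20.8, 25.9 and 26.7 CPM with the inducer. ETV4 had 22.8, 30.9 and 34.2 CPM against 25.2, 35.8 and 37.3 CPM. Both were slightly higher in 3 of 3 same-numbered pairs, with log2 changes of 0.15 ± 0.29 and 0.16 ± 0.18 (SE). ETV5 was at 70.6, 100.2 and 87.9 CPM and at 70.4, 89.2 and 93.7 CPM, with a log2 change of -0.03 ± 0.14 (SE). ELK3 was at 80.2, 132 and 109 CPM and at 75.0, 112 and 120 CPM, a log2 change of -0.07 ± 0.18 (SE). WT libraries of the same group differed from each other by more than treated and untreated means did for these genes. The remaining log2 changes in WT were -0.14 for ETS1, -0.07 for ETS2, 0.04 for ELK1 and -0.23 for ELK4. ETS2 was the only factor without overlap between the WT groups, with 34.2, 33.6 and 33.4 CPM untreated and 33.2, 32.4 and 30.4 CPM with the inducer; 1.73% of all genes were lower without overlap.

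The interaction of genotype and inducer asked whether the response differed between NS1 and WT. In the fit without a block, 0 of 8 factors were called, against 0.0225% of all genes; ETV4 and ETV5 had an unadjusted p under 0.05, and DESeq2 called ETV4 alone. The interaction estimate was -1.30 ± 0.27 for ETV4 (SE, edgeR adjusted p = 0.074), -0.89 ± 0.42 for ETV1 (0.41), -0.49 ± 0.20 for ETV5 (0.32) and -0.53 ± 0.26 for ELK3 (0.43). With the block within each line the estimates hardly moved and their errors shrank. There ETV4 was called at -1.31 ± 0.15 (SE, edgeR adjusted p = 9.3e-05), ETV1 at -0.90 ± 0.13 (0.00051), ETV5 at -0.50 ± 0.11 (0.0056) and ELK3 at -0.53 ± 0.11 (0.0061), against 14.0% of all genes. A block for the number alone called ETV4 (-1.30, edgeR adjusted p = 0.0094), against 3.57% of all genes. Without replicate 1 and without a block, ETV4 (-1.20, edgeR adjusted p = 0.011) and ETV1 (-0.96, 0.020) were called, against 3.24% of all genes. ETS1, ETS2, ELK1 and ELK4 were not called in any of these fits. Their interaction estimates without a block were -0.05, -0.16, -0.14 and 0.23.

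**Figure D3:**
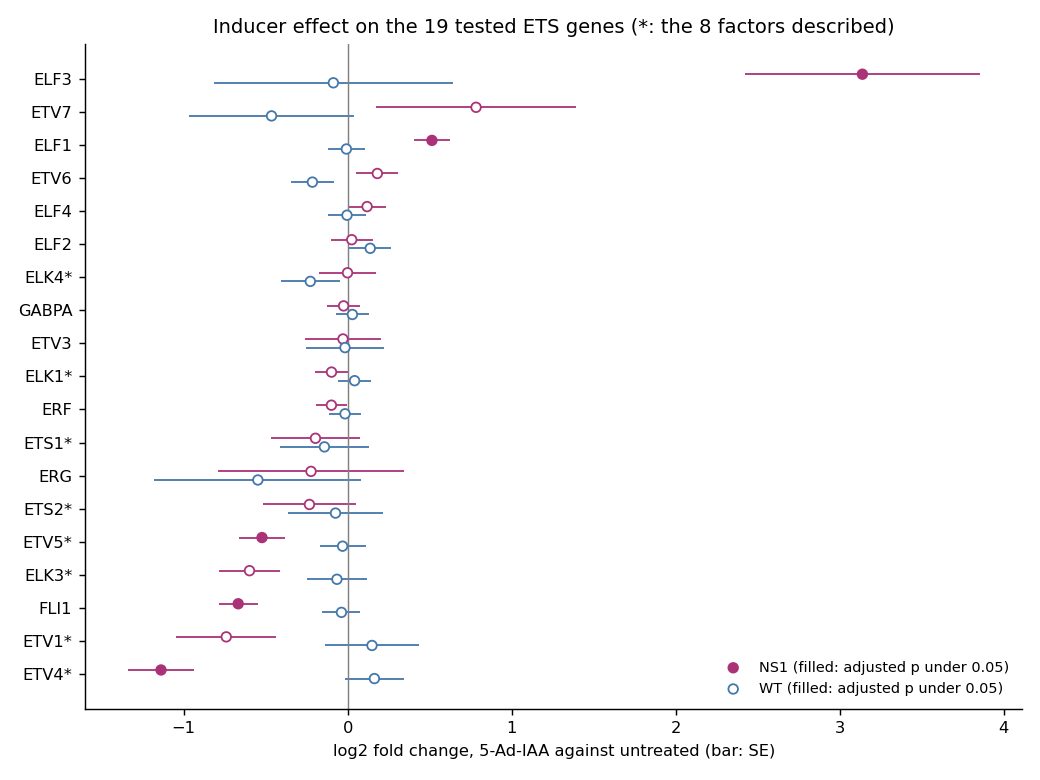
Log2 fold change with 5-Ad-IAA against untreated cells for the 19 tested ETS genes in NS1 and WT, from the fit without a block; bars are 1 SE, filled points have an edgeR adjusted p under 0.05, and asterisks mark the 8 factors described. ETV4 lies lowest at -1.14 in NS1, all WT points are open, and ELF3 lies far to the right at 3.14 in NS1.

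The untreated lines already differed in ETV4. It had 22.8, 30.9 and 34.2 CPM in WT and 13.3, 13.2 and 14.6 CPM in NS1 (29.3 ± 5.86 and 13.7 ± 0.79, SD, n = 3), 53.1% less in NS1. The log2 difference of NS1 against WT was -1.09 ± 0.19 (SE, edgeR adjusted p = 0.0030), the sole call among the 8 factors, against 12.5% of all genes (7.05% lower). ETV5 differed by -0.08, ETS1 by 0.06 and ELK1 by 0.10 on the log2 scale, with groups that overlapped. ETS2, which is expressed in many cell types, did not overlap: its 3 NS1 values of 92.4, 44.7 and 43.9 CPM were all above the WT values of 34.2, 33.6 and 33.4 CPM. Its log2 difference of 0.84 ± 0.29 (SE) was not called (edgeR adjusted p = 0.075); 14.8% of all genes were higher without overlap. ELK4 was at 17.1, 21.5 and 12.5 CPM in WT and at 25.4, 24.5 and 21.5 CPM in NS1, a log2 difference of 0.48 ± 0.18 (SE, edgeR adjusted p = 0.093).

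ETV1 in untreated cells rested on replicate 1. With all libraries its log2 difference between the lines was -0.66 ± 0.29 (SE, edgeR adjusted p = 0.16). Without replicate 1 it was -1.17 (edgeR adjusted p = 0.00011), since replicate 1 of untreated NS1 had 20.6 CPM, within the WT range of 19.4 to 24.6, and the others about 10.0 to 10.8. Without replicate 1 there were 4 calls, ETV1, ETV4, ETS2 (0.40, edgeR adjusted p = 0.029) and ELK3 (-0.41, 0.029), against 19.6% of all genes. With all libraries ELK3 differed by -0.26 (edgeR adjusted p = 0.39), and it was called in none of the 6 fits without a single library. Without replicate 2 or without replicate 3 edgeR called 0 of the 8, and 204 and 182 of all genes; ETV4 then had log2 differences of -1.02 in each case (edgeR adjusted p = 0.10).

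With the inducer in both lines, NS1 cells had less ETV1, ETV4, ETV5 and ELK3 and more ELK4 than WT cells. These 5 of 8 factors were called by edgeR, 4 lower and 1 higher, against 28.2% of all genes (14.5% lower and 13.6% higher). ETV4 was at 25.2, 35.8 and 37.3 CPM in WT and at 5.25, 7.68 and 5.90 CPM in NS1, 80.9% less, with a log2 difference of -2.39 ± 0.20 (SE, edgeR adjusted p = 7.2e-06). ETV1 was at 20.8, 25.9 and 26.7 CPM in WT and at 12.4, 6.28 and 5.73 CPM in NS1 (log2 difference -1.55 ± 0.30 SE, edgeR adjusted p = 0.0021). All NS1 values of both genes lay below all WT values. For ETV5 the log2 difference was -0.57 ± 0.14 (SE, edgeR adjusted p = 0.0089), and for ELK3 it was -0.79 ± 0.18 (SE, edgeR adjusted p = 0.0063). ELK4 was at 12.8, 15.9 and 15.2 CPM in WT and at 22.9, 27.4 and 21.3 CPM in NS1, 63.4% more (log2 difference 0.71 ± 0.18 SE, edgeR adjusted p = 0.0097). ETS2 also had no overlap, at 30.4 to 33.2 CPM in WT and 35.6 to 75.5 CPM in NS1, but was not called (log2 difference 0.68 ± 0.29 SE, edgeR adjusted p = 0.095). ETS1 and ELK1 differed by 0.00 and -0.04 on the log2 scale. The 6 factors without overlap stood beside 43.4% of all genes.

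Without replicate 1 the log2 difference was -2.13 for ETV1 and 0.32 for ETS2, and the number of calls was again 5, against 34.0% of all genes. The 5 calls from all libraries were kept in all 6 fits that left out a single library of the groups compared, against 20.6% to 24.9% of all genes. Without replicate 2 the call of ETV4 alone was left (log2 difference -2.48, edgeR adjusted p = 0.0039), against 9.03% of all genes. Without replicate 3 those of ETV4 (-2.24, 0.0053) and ELK4 (0.82, 0.032) were left, against 11.7% of all genes. This comparison shares its treated NS1 libraries with the inducer effect in NS1, so the same values stand in both.

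Across the 4 groups the means of ETV4 ran, from low to high, NS1 with inducer (6.28 CPM), NS1 untreated (13.7), WT untreated (29.3) and WT with inducer (32.8), and the 2 WT groups overlapped. For ETV1 the order was the same, with means of 8.15, 13.8, 22.1 and 24.5 CPM, and every pair of neighbours overlapped. For ETV5 and ELK3 treated NS1 stood below the rest, and the other 3 groups overlapped. ETV4 took 30.1% to 35.2% of the summed PEA3 level per kb in untreated WT, 32.8% to 35.5% in treated WT, 19.1% to 20.9% in untreated NS1 and 12.7% to 15.9% in treated NS1. These ranges did not overlap between the lines or between the NS1 groups.

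Levels of the members were also compared across the 12 libraries, as a description only, since libraries of a group share their line and treatment. ETV5 and ELK3 had a Pearson correlation of 0.971 in log2 CPM, ETV4 and ELK3 of 0.879, ETV1 and ETV4 of 0.854, and ETV4 and ETV5 of 0.849. ETV4 and ELK4 had -0.721. Among 11558 genes with a mean of at least 5 CPM, the genes most like ETV4 were HJURP (0.989), POLM, SLC35G2, NRGN and AURKB (0.985). Those most like ETV1 were WSCD1 (0.977), GABBR2, ZW10, DOCK4 and DLAT (0.965), and those most like ETV5 were SH2B3 (0.979), RASSF8, ELK3, UAP1 and NT5E (0.965). ELK3, one of the 8, thus stood at place 3 for ETV5.

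Among the 20 other human ETS genes, 11 were tested and 3 were called in NS1 with the inducer, against 6.15% of all genes. FLI1, an ERG subfamily member, fell from 35.1 ± 3.08 to 22.1 ± 1.11 CPM (SD, n = 3; log2 change -0.67 ± 0.12 SE, edgeR adjusted p = 0.0076). ELF1 rose from 39.7 ± 4.51 to 56.7 ± 1.36 CPM (log2 change 0.51 ± 0.11 SE, edgeR adjusted p = 0.018). ELF3, an ETS factor of epithelial cells, rose from 0.247, 2.62 and 1.83 CPM to 3.48, 17.6 and 19.5 CPM (log2 change 3.14 ± 0.72 SE, edgeR adjusted p = 0.022). The lowest ELF3 library held 4 counts, and the treated replicate 1 lay near the highest untreated one. The median of the 11 genes was 0.03. FLI1 was also lower in NS1 than in WT without the inducer (-0.61, edgeR adjusted p = 0.0056) and with it (-1.24, 1.7e-05), a stepwise order like that of ETV4. ELF3 was higher in NS1 than in WT with the inducer (2.65, edgeR adjusted p = 0.011; 3.62 without replicate 1). In WT none of the 11 was called with the inducer. In the interaction none of the 11 was called without a block, FLI1 was called with a block for the number, and 4 were called with the block within each line. These were FLI1 (-0.63, edgeR adjusted p = 0.0020), ELF3 (3.19, 2.7e-05), ELF1 (0.52, 0.011) and ETV6 (0.40, 0.043), against 14.0% of all genes.

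Known transcriptional outputs of ERK signalling were described beside the ETS factors. In NS1, 7 of the 14 tested genes of a list of 15 were called with the inducer, 6 lower and 1 higher, with a median of -0.48 against 0.01 for all genes; 6.15% of all genes were called, 3.39% lower. DUSP4 (-0.85, edgeR adjusted p = 0.0017) and DUSP6 (-0.83, 0.014) encode phosphatases that act on ERK, FOSL1 (-0.93, 0.011) an AP-1 subunit, and SPRY4 (-1.12, 0.012) a feedback inhibitor of RAS signalling. EPHA4, an ephrin receptor, was the gene that rose (2.00, edgeR adjusted p = 0.0080). The estimate of ETV4, at -1.14, lay close to that of SPRY4, the lowest of this list. Between the untreated lines, where ETV4 was lower in NS1, 1 of the 14 was called, higher in NS1, against 12.5% of all genes. The median there was 0.10, with 7 estimates above 0 and 7 below. Without replicate 1 the median was -0.11 and 4 were called, all lower, against 19.6% of all genes. In WT 0 of the 14 were called. In the interaction 0 were called without a block, 6 with a block for the number and 10 (9 lower, 1 higher) with the block within each line, against 0.0225%, 3.57% and 14.0% of all genes. The list was put together with earlier results of these data known.

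The kinases and regulators above the ETS factors did not pass the test in NS1 with the inducer, where 6.15% of all genes were called. Of 9 RAF, MEK, ERK and RSK genes 0 were called (median 0.13; with an unadjusted p under 0.05 were MAP2K2 and MAPK3, at 0.27 and 0.35). Of 13 regulators of ETS factors 0 were called, with a median of 0.18 and 12 estimates above 0. CIC, the repressor of PEA3 genes, had 83.2, 80.2 and 84.5 CPM untreated and 91.5, 101 and 87.1 CPM with the inducer (log2 change 0.17 ± 0.11 SE, edgeR adjusted p = 0.40). ATXN1, a partner of CIC, had 5.93, 11.8 and 10.1 CPM and 11.4, 18.4 and 14.4 CPM (log2 change 0.67 ± 0.28 SE, edgeR adjusted p = 0.19). The block within each line called ATXN1 (0.70, edgeR adjusted p = 0.0037) and DET1 (0.43, 0.040) among the regulators, and MAP2K1 (-0.34, 0.0029), MAP2K2 (0.27, 0.034) and MAPK3 (0.35, 0.0020) among the kinases. These were 2 of 13 regulators and 3 of 9 kinases, against 25.9% of all genes. With the inducer in both lines, ATXN1 was higher in NS1 (1.17, edgeR adjusted p = 0.0083), as were SRF (0.34, 0.029), the partner of the TCFs, and MED23 (0.57, 0.011), a Mediator subunit that ELK1 binds. These were 3 of the 13 regulators, against 28.2% of all genes. SRF was also higher in untreated NS1 than in untreated WT (0.40, edgeR adjusted p = 0.029), a call that was lost without replicate 1 (0.30, 0.053). With all libraries it was the 1 call among the 13 regulators there, against 12.5% of all genes.

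Genes known as targets of these factors gave mixed counts, beside 6.15% of all genes called in NS1 with the inducer. Of 9 TCF and SRF targets 7 were tested, and IER2 (-0.63, edgeR adjusted p = 0.037) and MCL1 (-0.48, 0.036) fell in NS1 with the inducer. EGR1 was at -0.60 and FOS at 0.68, neither called (edgeR adjusted p = 0.30 and 0.19). EGR1 was at 9.07, 9.88 and 8.94 CPM untreated and at 9.88, 4.19 and 3.74 CPM with the inducer, so treated replicate 1 lay with the untreated libraries. Without replicate 1, where 11.4% of all genes were called, 4 of the 7 were called: EGR1 (-1.25, edgeR adjusted p = 0.0019), IER2 and MCL1 lower and JUNB (0.46, 0.040) higher; FOS was at 0.19 (0.81). Of 9 genes described as PEA3 or ETS targets 7 were tested and PLAU, the urokinase gene, fell (-0.76, edgeR adjusted p = 0.017), from 142, 170 and 162 CPM to 70.2, 111 and 98.8 CPM. In untreated cells PLAU was higher in NS1 than in WT (1.05, edgeR adjusted p = 0.0018), opposite to ETV4. MMP1 and MMP3, matrix metalloproteinase genes, had estimates of -2.03 and -1.89 with standard errors of 1.81 and 1.73. MMP1 was low in untreated NS1, at 1.73, 4.65 and 3.56 CPM in replicates 1, 2 and 3. In untreated WT, which these estimates do not compare, it had 0.843, 53.7 and 52.3 CPM. The block within each line called 4 of these 7 lower, namely PLAU, PLAUR, MMP3 and MMP1, against 25.9% of all genes (12.8% lower). Without replicate 1 MMP1 (-1.90, edgeR adjusted p = 0.0024), MMP3 (-1.88, 0.00080) and PLAUR (-1.16, 0.00019) were called too.

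**Figure D4:**
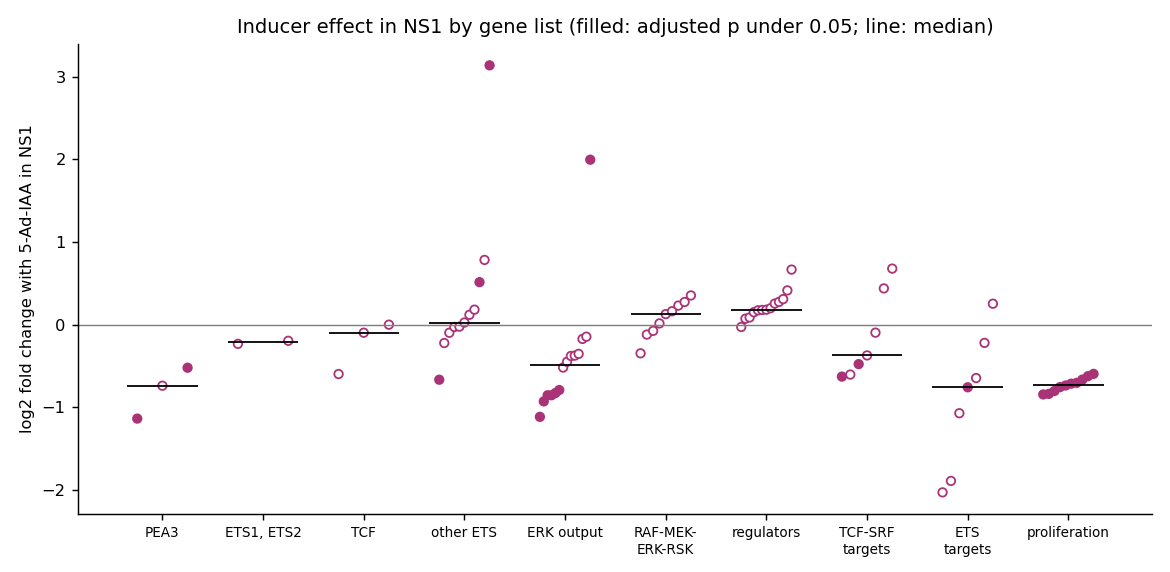
Log2 fold change with 5-Ad-IAA in NS1 for the tested genes of each list, from the fit without a block; filled points have an edgeR adjusted p under 0.05 and lines are medians. The PEA3 median lies at -0.74, the medians of the kinases and regulators lie at 0.13 and 0.18, and all 10 proliferation genes are filled and below 0.

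Markers of proliferation fell in NS1 with the inducer, as ETV4 and ETV5 did. All 10 of 10 listed genes, among them PLK1, CCNA2 and MKI67, were called lower there, with a median of -0.73, against 3.39% of all genes. Between the untreated lines, where ETV4 was lower in NS1, the median of these genes was -0.19. There 3 of 10 were called, all lower, against 12.5% of all genes (7.05% lower), and 3 estimates were above 0. The summed level of the 10 genes was 1557 to 1705 CPM in untreated NS1 and 873 to 1073 CPM with the inducer, and 1668 to 1922 and 1683 to 1832 CPM in untreated and treated WT. The part of this change in the ETS values was not tested. Of the urothelial markers GATA3 rose (1.34, edgeR adjusted p = 0.028), while UPK3A and KRT5 had no count in any library and KRT20 had none in 3 groups, so the labelled bladder origin rests on few of these 7 genes. The summed urothelial level was 97.6 to 114 CPM in untreated and 148 to 213 CPM in treated NS1. The 6 epithelial markers summed to 4018 to 7550 and 4987 to 10960 CPM, with 0 of 5 tested called and no CDH1 count in untreated NS1. Summed mesenchymal markers were at 3729 to 4190 and 4889 to 7451 CPM, with 0 of 4 called. Leukocyte markers summed to at most 3.00 CPM and endothelial markers to at most 4.07 CPM in any library, although PECAM1, at 1 to 5 counts in untreated NS1 and 21 to 34 with the inducer, was called higher.

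Reads shared with neighbouring genes could touch some members. ETV4 shares 68 exonic bases, 1.89% of its own, with DHX8 on the other strand, whose log2 change in NS1 was 0.02; between the untreated lines DHX8 differed by -0.47 (edgeR adjusted p = 0.0080). ETV5 shares 164 bases (2.83%) with DGKG on the same strand (-0.49 in NS1, edgeR adjusted p = 0.077), and ELK3 shares 209 (4.50%) with the antisense gene AC008149.1. ELK4 shares 422 bases (3.48%) with MFSD4A, which had 13 counts over the 12 libraries. The use of strand in the counting was not given in the sources used here.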

How the data were processed

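The authors deposited 1 table of unnormalized counts, in whole reads, for 60603 genes in 12 libraries. Per the labels' protocols, poly(A) RNA was made into libraries with a NEBNext kit and sequenced with a kit of 75 cycles. The submitters' processing notes name STAR 2.7.3a, featureCounts 1.6.4 and hg38; the annotation release and the use of strand are not given in the sources used here. Symbols were matched for 60306 genes. Lengths are merged exons of GENCODE 29; positions and promoters are from RefSeq on GRCh38.p14, matched by symbol. Library totals ran from 10593934 to 20266996 counts.

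Counts were fitted with edgeR 4.0.16 (R 4.3.3): filterByExpr over 4 groups (17775 genes kept), TMM scaling, 1 quasi-likelihood fit of all 12 libraries and 5 two-sided contrasts, with Benjamini-Hochberg adjustment over all genes and calls at an adjusted p under 0.05. The standard error is the estimate divided by the square root of F. CPM use TMM-scaled totals. DESeq2 1.42.0, other scalings, filters, replicate blocks and left-out libraries were alternatives. No pair of libraries within a group looked like 1 library deposited more than once (closest pair, chi-square 3.03 per degree of freedom). The fit without a block was tested on simulated counts for the inducer effect in NS1. Those counts held no replicate effect, and the block fits, the interaction and DESeq2 were not tested in this way. Deviations from group means of same-numbered libraries correlated at 0.713, 0.386 and 0.384 in NS1 and at 0.752, 0.385 and 0.256 in WT. Libraries numbered 2 and 3 also correlated across numbers, at 0.371 and 0.278 in NS1 and at 0.367 and 0.248 in WT. These values set replicate 1 apart but do not resolve whether 2 pairs with 2 and 3 with 3. The block fits take the numbers from the titles as given. All 8 factors are named in every comparison, other ETS genes where called, and other list members where called in NS1 with the inducer (up to 4 a list) or with a known role on a factor; likeness was ranked by Pearson correlation. The factors and lists were chosen with earlier results of these data known.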

Additional observations from a re-analysis of the deposited data

Results flagged for a closer look

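For 4 factors the inducer effect differed between NS1 and WT, by a test of the difference itself with numbers blocked inside each line. This block takes the numbers as given, and whether 2 pairs with 2 and 3 with 3 was not resolved. With numbers blocked inside each line, the interaction in edgeR was -1.31 for ETV4 (adjusted p = 9.3e-05), -0.90 for ETV1 (0.00051), -0.53 for ELK3 (0.0061) and -0.50 for ETV5 (0.0056). In that fit 14.0% of all genes were called. With a block for the number alone the interaction was -1.30 for ETV4 (edgeR adjusted p = 0.0094), against 3.57% of all genes called. Each value is the log2 change in NS1 minus that in WT. In the same-numbered pairs all 3 NS1 differences of these 4 genes were below 0, as were those of ETS1, ETS2 and ELK1, which were not called. In WT all 3 of ETV1, ETV4 and ELK1 were above 0, all 3 of ETS2 were below 0, and 2 of 3 of ETV5, ELK3 and ETS1 were below 0. Without replicate 1 and without a block, ETV4 (-1.20) and ETV1 (-0.96) were called, against 3.24% of all genes. With all libraries and no block, no interaction of a factor was called, against 0.0225% of all genes.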

How the results depend on the processing

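Of the 8 factors, 2 were called for the inducer in NS1, against 6.15% of all genes. The count was 4 without the low-count filter (5.28% of all genes), 3 with the replicate block (13.6%) and 3 in DESeq2 (8.37%). It was 5 with the replicate block within each line (25.9%) and 0 to 4 with whole replicates or single libraries left out (0.0% to 11.4%). Between the untreated lines the main count was 1; it was 4 without the filter, 3 with the replicate block, 2 in DESeq2 (12.5% of all genes, 8.74%, 3908 genes and 12.9%) and 0 to 4 with replicates left out. With the inducer in both lines it was 5 (28.2% of all genes), and 1 to 6 with whole replicates or single libraries left out (9.03% to 34.0%). For the interaction it was 0 (0.0225% of all genes), and 2 without the filter (2.00%) and 1 with the replicate block (3.57%). It was 4 with the replicate block within each line (14.0%) and 1 in DESeq2 (2.76%). With whole replicates or single libraries left out it was 0 to 2 (0.0% to 3.24%). In WT it was 0 under every alternative run. Between the lines, same-numbered libraries correlated at 0.136, 0.072 and 0.190 untreated and at 0.153, 0.120 and 0.006 with the inducer. Libraries of unlike number correlated at -0.148 to -0.019 untreated and at -0.164 to 0.114 with the inducer. Pairing by number between the lines was thus weak at most and not resolved. The block moved the untreated count from 1 to 3 and the treated count from 5 to 6. All genes called went from 2222 to 3908 and from 5007 to 6670. The cause of these moves was not tested. Library totals in place of TMM gave 370 genes higher and 759 lower with the inducer in NS1, against 490 and 603, and 1863 higher and 3182 lower between the treated lines, against 2426 and 2581. Leaving out replicate 2 or replicate 3 left 0 genes called with the inducer in NS1 (2047 and 2048 at an unadjusted p under 0.05). No called value changed sign; estimates near 0 did, as for ELK4 in NS1 in 9 settings. The PEA3 median minus that of the other ETS genes in NS1 was -0.71, and -1.001 to -0.52 without single libraries. Among the tested ETS genes, depth limits ELF3, ERG and ETV7 most, with 1 to 4 counts in their lowest libraries.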
